A study of Mus musculus with 12 samples.

Results

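Genes that mark monocytes and macrophages were followed across both genotypes and both sorted populations of a mouse acute myeloid leukemia. The set was a list of 36 symbols, and a symbol was measured where the platform annotation gave a probe set that symbol and no other. Of the 36, 35 had such a probe set, each exactly 1, out of 22180 genes represented in this way. All 35 passed the filter on dim signal that left 17749 genes for testing. The list was chosen with earlier results of these data known. Shares of members set beside shares of all genes are therefore a description and not a test. Irf5, a transcription factor of interferon responses, was reached only by a probe set shared with its neighbour Tnpo3 and has no value of its own here.

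The series compared leukemias with and without AMPK, the kinase complex that senses cellular energy, in 4 groups of 3 arrays. All mice were of the C57BL/6J strain, and all groups shared the MLL-AF9 oncogene, a fusion found in human myeloid leukemia, and passage through lethally irradiated hosts (10 Gy). Each host was given 50000 stem or progenitor cells of bone marrow carrying MLL-AF9, of genotype AMPKfl/fl, labelled wild type (WT), or AMPKΔ/Δ, labelled knockout (KO). Marrow was collected when each host developed leukemia, and 5000 cells were sorted. Whole leukemia was sorted as all GFP+ cells. L-GMP, leukemic cells with the surface of granulocyte-macrophage progenitors, taken by the submitters to be leukemia-initiating cells, were GFP+, lin-, c-kit+, CD16/32+ and CD34+. The wild-type arrays thus carry floxed alleles. The sources used here do not give the subunit and the part of it that was deleted, the Cre used, the age of the mice, the antibodies of the lineage gate or whether replicates came from separate mice. The p-values below therefore set a difference only against the spread of these samples, and that spread may be technical.

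As background, monocytes arise from granulocyte-macrophage progenitors in the marrow under the growth factor receptor Csf1r, leave the marrow through the chemokine receptor Ccr2, and become macrophages or patrolling cells that carry Cx3cr1. They take up particles through Fc, lectin and scavenger receptors, sense microbes through Toll-like receptors and kill with lysozyme, perforin-2 and the NADPH oxidase. MLL-AF9 leukemias of mice often hold cells with a monocytic phenotype beside immature ones. Several of these genes, among them Itgam, Cybb and Lyz2, are also active in neutrophils.

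Values are log2 of the deposited intensity, and a difference of 1 on this scale is a doubling. The deposited intensities ran from 17.96 to 9108, the array medians from 36.9 to 39.3, and the array-to-array correlations from 0.902 to 0.986. The number of arrays limits the precision, since differences of 2 group means had a median standard error of 0.15 log2. A gene is said to be called where limma's adjusted p over all 17749 genes is under 0.05, and an exact permutation test of 3 arrays against 3 cannot go below p = 0.1. Knockout whole leukemia array 2 stood apart on the first principal component, at 67.4 against -24.2 to 18.5 for the others, and knockout L-GMP array 2 stood apart on the second, at -41.3. Prkaa1, the alpha 1 catalytic subunit of AMPK, measured 6.83 to 7.45 on the 6 knockout arrays and 7.72 to 8.69 on the 6 wild-type arrays. Whether its probe set lies in the deleted part is unknown. Cd34, a gene of the L-GMP gate, measured 9.45 to 10.05 on the L-GMP arrays. On the whole leukemia arrays Cd34 measured 8.48, 9.38 and 8.35 in the wild type and 5.54, 6.65 and 7.05 in the knockout.

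Promoter sequence is shown for 5 members. The first 3 were chosen because they were lower on every knockout array than on every wild-type array in both populations. Tlr7 and Abcc3 were lower in the same way and are not shown. Ly86 was chosen for the lowest genotype difference in whole leukemia, and Itgam because it had almost none there. Each line gives the 250 bases before the RefSeq transcription start on GRCm38.p6, 5′ to 3′ on the gene's strand. Capitals mark matches, on either strand, to GAGGAAG, a core of the site of the myeloid factor PU.1, or to TTNCNNAA, the core of the C/EBP site. For F13a1 1 of 2 annotated starts is shown.
Mpeg1 chr19:12460520-12460769 (+): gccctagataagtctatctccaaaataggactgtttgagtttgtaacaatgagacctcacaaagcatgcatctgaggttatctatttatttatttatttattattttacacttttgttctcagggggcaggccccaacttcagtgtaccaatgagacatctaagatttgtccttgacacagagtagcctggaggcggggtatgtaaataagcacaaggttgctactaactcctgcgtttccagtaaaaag
F13a1 chr13:37050245-37050494 (-): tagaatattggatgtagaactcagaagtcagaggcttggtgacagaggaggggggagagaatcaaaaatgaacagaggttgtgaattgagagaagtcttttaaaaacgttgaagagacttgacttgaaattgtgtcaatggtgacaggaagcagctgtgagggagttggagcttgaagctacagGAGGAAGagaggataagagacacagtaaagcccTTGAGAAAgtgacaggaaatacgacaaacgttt
Ms4a8a chr19:11081104-11081353 (-): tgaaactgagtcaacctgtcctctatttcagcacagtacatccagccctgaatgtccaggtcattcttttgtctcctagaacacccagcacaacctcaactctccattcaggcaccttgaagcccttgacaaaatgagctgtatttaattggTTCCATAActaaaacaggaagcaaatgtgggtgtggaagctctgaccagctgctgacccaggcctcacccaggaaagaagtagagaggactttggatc
Ly86 chr13:37345095-37345344 (+): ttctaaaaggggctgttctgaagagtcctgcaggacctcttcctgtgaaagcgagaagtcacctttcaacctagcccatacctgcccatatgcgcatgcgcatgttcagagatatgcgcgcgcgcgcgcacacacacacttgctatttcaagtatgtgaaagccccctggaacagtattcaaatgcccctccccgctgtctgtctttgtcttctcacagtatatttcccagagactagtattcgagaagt
Itgam chr7:128062390-128062639 (+): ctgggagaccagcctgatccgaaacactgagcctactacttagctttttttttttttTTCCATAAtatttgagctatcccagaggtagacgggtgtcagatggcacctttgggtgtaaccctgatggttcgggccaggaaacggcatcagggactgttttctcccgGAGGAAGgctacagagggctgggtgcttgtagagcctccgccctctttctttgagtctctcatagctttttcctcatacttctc
Of the 36 members, 24 had such a window, 28 windows in all. F13a1 held the PU.1 core 66 to 60 bases before the start and a C/EBP match 33 to 26 bases before it. Itgam held both as well, at 84 to 78 and at 193 to 186 bases before the start. Ms4a8a held a C/EBP match alone, 98 to 91 bases before the start, and the windows of Mpeg1 and Ly86 held neither motif. GAGGAAG was present in 6 of the 28 member windows (21.4%) and in 10.6% of the 32851 windows of the table. TTNCNNAA was present in 18 of the 28 (64.3%) and in 36.8% of the table, and the interferon regulatory factor motif, GAAA, any 2 bases and GAAA again, in 3 of the 28 (10.7%) and in 2.98%. The motifs do not overlap each other in the windows shown, and a match is a description of letters, not of binding.

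In whole leukemia the genotypes were compared to ask how loss of AMPK alters the bulk of the leukemia. The monocyte genes had lower values in the knockout for 27 of the 35 members, with a median difference of -0.45 log2, beside 50.4% of all genes lower and a median of -0.0016. The largest differences were those of Ly86 (0.248-fold), Fn1 (0.36-fold), Mertk (0.374-fold), Ms4a6c (0.39-fold), Ms4a8a (0.399-fold) and F13a1 (0.425-fold). No member passed the test over all genes. Of the members 0 of 35 were called by limma, and so were 0% of all genes tested. At an unadjusted p under 0.05, 13 members were lower and 0 higher, beside 3.54% and 2.43% of all genes. All 3 knockout arrays lay below all 3 wild-type arrays for 13 of 35 members, against 5.73% of all genes, and above them for 0, against 5.46%. A difference of -1 or lower was measured for 8 members and for 0.558% of all genes. The 8 members with higher values in the knockout were Lilrb4a (0.48), Tlr4 (0.36), Itgam (0.09), Mrc1 (0.06), Klra2 (0.06), Itgax (0.05), Csf2ra (0.02) and Fcgr1 (0.01), where the values are log2 differences. Fewer cells of a type and less RNA per cell cannot be told apart in these sorted bulk samples.

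In L-GMP the same comparison asks what AMPK loss alters in the progenitor-like fraction. Members with lower knockout values numbered 28 of 35, with a median of -0.22 log2, beside 45.2% of all genes and a median of 0.02. Fn1 (0.188-fold), Lilrb4a (0.465-fold), Mpeg1 (0.517-fold) and Ly86 (0.53-fold) had the largest differences. Limma called 0 of the 35, where it called 0.00563% of all genes, which is 1 gene and no member. At an unadjusted p under 0.05 there were 3 lower members (Mpeg1, Fn1 and Slc15a3) and 0 higher, beside 1.83% and 2.3% of all genes (4.13% in both directions). The arrays did not overlap, with the knockout lower, for 6 members against 3.66% of all genes, and with the knockout higher for 0 against 5.82%. A difference of -1 or lower was measured for 2 members, against 0.355% of all genes. The 7 members with higher values in the knockout had differences of 0.02 to 0.30 log2, namely Tlr4 (0.30), Sirpa (0.19), Cd14 (0.13), Fcgr1 (0.06), Ms4a7 (0.03), Tlr2 (0.02) and Vcan (0.02).

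**Figure D1:**
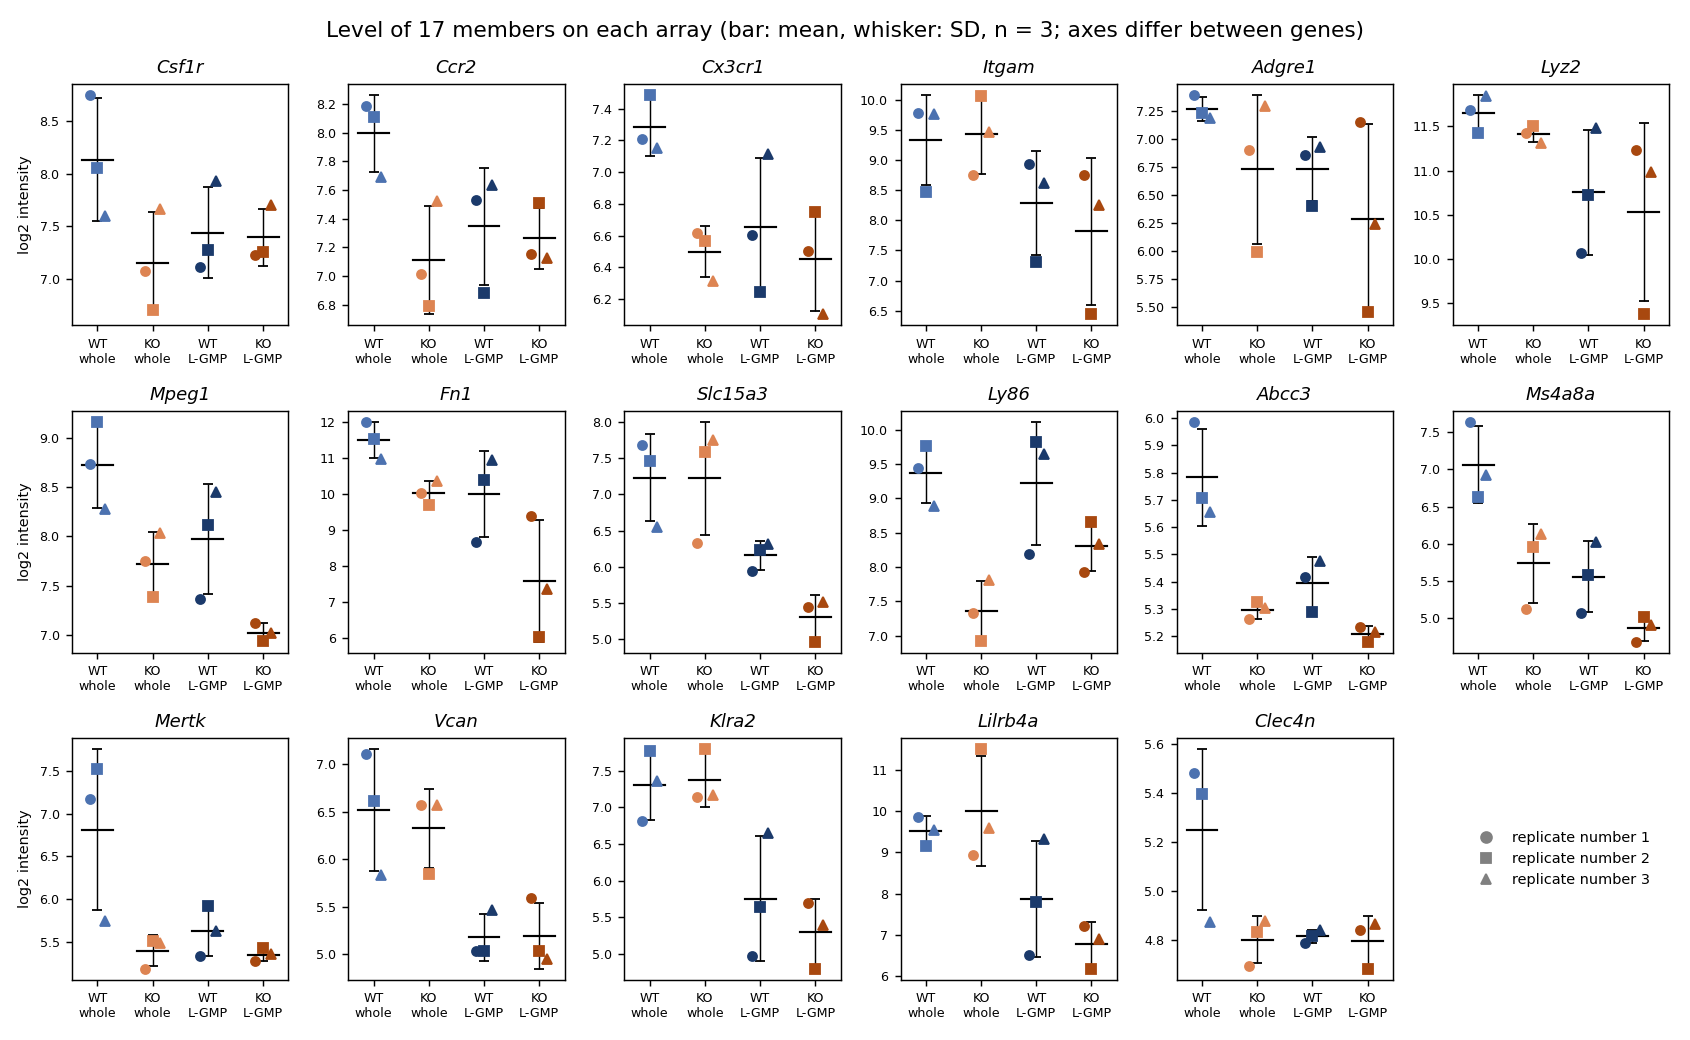
Log2 intensity of 17 members on each of the 12 arrays, by group (WT or KO, whole leukemia or L-GMP); marks are arrays and their shape the replicate number, the horizontal bar is the mean and the whisker the SD, and each gene has its own axis. The wild-type whole leukemia arrays of Ly86, at 8.90 to 9.77, all lie above the knockout ones, at 6.93 to 7.81.

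The growth factor receptors gave mixed values. Csf1r, the receptor for macrophage colony-stimulating factor (probe set 17351053), measured 8.75, 8.06 and 7.60 in wild-type whole leukemia and 7.07, 6.71 and 7.67 in knockout whole leukemia. On the L-GMP arrays it measured 7.11, 7.27 and 7.93 in the wild type and 7.23, 7.26 and 7.71 in the knockout. The whole leukemia ranges overlapped by a narrow margin, 7.60 being the lowest wild-type and 7.67 the highest knockout value, and the L-GMP ranges lay on top of each other. Its genotype difference was -0.99 (SE 0.33, 95% interval -1.73 to -0.24, limma adjusted p = 0.827) in whole leukemia and -0.04 (SE 0.33, interval -0.78 to 0.70) in L-GMP. Csf2ra, which binds granulocyte-macrophage colony-stimulating factor, had group means of 7.66 to 7.83 and genotype differences of 0.02 and -0.0030.

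Among receptors for migration and adhesion, both chemokine receptors had separate genotype ranges in whole leukemia. Ccr2, which takes monocytes out of the marrow (probe set 17523650), measured 8.19, 8.11 and 7.69 in wild-type and 7.01, 6.79 and 7.52 in knockout whole leukemia, and 7.53, 6.88 and 7.63 in wild-type and 7.15, 7.51 and 7.13 in knockout L-GMP. Every wild-type whole leukemia array was above every knockout one, while the L-GMP arrays were interleaved. Cx3cr1, the fractalkine receptor (probe set 17532268), measured 7.21, 7.49 and 7.15 against 6.61, 6.57 and 6.32 in whole leukemia, and 6.60, 6.25 and 7.12 against 6.50, 6.75 and 6.10 in L-GMP, wild type first. Its wild-type whole leukemia arrays were the highest 3 of the 12. The whole leukemia differences were -0.89 (SE 0.24, interval -1.43 to -0.35) for Ccr2 and -0.78 (SE 0.22, interval -1.28 to -0.29) for Cx3cr1, both at a limma adjusted p of 0.74.

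Itgam, the CD11b chain of the complement receptor 3 integrin (probe set 17483577), measured 9.78, 8.47 and 9.75 in wild-type and 8.75, 10.06 and 9.46 in knockout whole leukemia. It measured 8.94, 7.32 and 8.61 in wild-type and 8.76, 6.44 and 8.25 in knockout L-GMP. The genotypes overlapped in both populations, with differences of 0.09 (SE 0.65) and -0.47 (SE 0.65), and their wide intervals of -1.35 to 1.52 and -1.91 to 0.96 do not show that the genotypes were alike. CD11b is a common part of lineage antibody mixes. The antibodies used here are not given, so a sort against it could set part of its L-GMP level. Itgax, the CD11c chain, lay low on all arrays, at 4.80 to 5.49.

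Phagocyte and tissue macrophage proteins were lower in the knockout for 8 of 8 members in L-GMP and 7 of 8 in whole leukemia, with 0 called. Of all genes 45.2% and 50.4% were lower. In L-GMP the differences of Mrc1 (-0.02), Siglec1 (-0.07), Cybb (-0.16), Lyz2 (-0.22) and Mertk (-0.28) were smaller than their SE. Mpeg1, which encodes the pore-forming protein perforin-2 (probe set 17357810), measured 8.73, 9.15 and 8.28 in wild-type and 7.75, 7.39 and 8.03 in knockout whole leukemia. In L-GMP it measured 7.36, 8.11 and 8.45 in the wild type and 7.12, 6.93 and 7.02 in the knockout. The ranges were apart in both populations, and the knockout L-GMP arrays lay close together. The differences were -1.0 (SE 0.29, interval -1.64 to -0.36, adjusted p = 0.74 by limma) in whole leukemia and -0.95 (SE 0.29, interval -1.59 to -0.31, adjusted p = 1.0) in L-GMP.

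Mertk, a receptor kinase for the uptake of dying cells (probe set 17375997), measured 7.17, 7.53 and 5.75 in wild-type whole leukemia. The other groups lay low, at 5.19, 5.51 and 5.49 in knockout whole leukemia, 5.33, 5.92 and 5.63 in wild-type L-GMP and 5.27, 5.42 and 5.36 in knockout L-GMP. A pair of wild-type whole leukemia arrays thus stood above all others. The whole leukemia difference was -1.42 (SE 0.37, adjusted p = 0.609), and of the alternatives run limma called it only where wild-type whole leukemia array 3 was left out (-1.95, adjusted p = 0.0302).

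Adgre1, the F4/80 antigen of mouse macrophages, measured 7.40, 7.24 and 7.19 in wild-type and 6.91, 5.99 and 7.30 in knockout whole leukemia, and 6.86, 6.40 and 6.93 in wild-type and 7.16, 5.45 and 6.24 in knockout L-GMP. The genotypes overlapped in both populations, with differences of -0.54 and -0.45 (SE 0.41 for each). Lyz2, lysozyme 2 of phagocytes, measured 11.68, 11.43 and 11.84 in wild-type and 11.42, 11.51 and 11.32 in knockout whole leukemia, and 10.07, 10.72 and 11.48 in wild-type and 11.24, 9.38 and 10.98 in knockout L-GMP. It overlapped throughout, with differences of -0.23 and -0.22 (SE 0.45 for each). Cybb, the catalytic chain of the phagocyte NADPH oxidase, differed between genotypes by -0.07 and -0.16 (SE 0.68 for each). Cd68, a lysosomal glycoprotein, measured 10.16 ± 0.47 (SD, n = 3) in wild-type and 9.09 ± 0.98 in knockout whole leukemia, and 9.93 ± 0.84 against 9.09 ± 1.04 in L-GMP. The macrophage lectin gene Mrc1 lay near background at 4.81 to 5.16. Siglec1, the sialoadhesin of resident macrophages, reached 6.89 on wild-type whole leukemia array 2 and measured 4.91 to 5.56 on the other 11 arrays.

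Among secreted and matrix proteins, F13a1 and Fn1 had the larger differences. F13a1, the A chain of coagulation factor XIII (probe set 17291881), measured 10.31 ± 0.24 in wild-type and 9.07 ± 0.82 in knockout whole leukemia, and 10.18 ± 0.56 in wild-type and 9.53 ± 0.18 in knockout L-GMP (SD, n = 3 for each). The lowest wild-type and highest knockout arrays were 10.08 and 9.77 in whole leukemia and 9.85 and 9.65 in L-GMP, so the gap in L-GMP was narrow beside the spread. The limma differences were -1.23 (SE 0.38, adjusted p = 0.794) and -0.65 (SE 0.38).

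Fn1, the matrix protein fibronectin (probe set 17224071), measured 11.98, 11.51 and 10.97 in wild-type and 10.01, 9.68 and 10.36 in knockout whole leukemia. In L-GMP it measured 8.65, 10.39 and 10.94 in the wild type and 9.38, 6.02 and 7.35 in the knockout. The whole leukemia ranges were apart and the L-GMP ranges overlapped through knockout L-GMP array 1. The knockout L-GMP arrays spread widely (SD 1.69), and the difference of -2.41 there had an SE of 0.78 and an interval of -4.14 to -0.69. In whole leukemia it was -1.48 (interval -3.20 to 0.25).

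Vcan, the proteoglycan versican, had genotype differences of -0.19 (interval -0.90 to 0.52) and 0.02 (interval -0.69 to 0.73), and its pattern by population is given below. Emilin2, a matrix glycoprotein, had genotype differences of -0.70 and -0.46 (SE 0.37 for each).

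Among the pattern recognition genes, Ly86 had the lowest value of all members in the whole leukemia comparison. Ly86 encodes MD-1, the partner of the B cell and myeloid receptor CD180 (probe set 17286587). It measured 9.44, 9.77 and 8.90 in wild-type and 7.33, 6.93 and 7.81 in knockout whole leukemia, and 8.19, 9.82 and 9.64 in wild-type and 7.92, 8.65 and 8.33 in knockout L-GMP. All knockout whole leukemia arrays were below all other arrays, and L-GMP overlapped through wild-type array 1. The differences were -2.01 (SE 0.42, interval -2.94 to -1.08, limma adjusted p = 0.492, place 22 of all genes by p) and -0.92 (SE 0.42, interval -1.84 to 0.01). Cd180, its partner gene on a list of the Toll-like receptor pathway, differed by -1.70 (SE 0.44, adjusted p = 0.609) in whole leukemia and -1.35 (SE 0.44) in L-GMP.

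The Toll-like receptors did not share 1 direction. Tlr7, the endosomal receptor for single-stranded RNA, measured 7.62, 7.47 and 7.08 against 5.5, 6.96 and 6.83 in whole leukemia and 6.24, 6.26 and 6.54 against 5.82, 5.28 and 6.24 in L-GMP, wild type first. Its ranges were apart by a narrow margin in both. In L-GMP the lowest wild-type array was at 6.242 and the highest knockout array at 6.237. The differences were -0.96 and -0.57 (SE 0.36 for each). Tlr2, for lipoproteins, had differences of -0.40 and 0.02 and Tlr4, for lipopolysaccharide, of 0.36 and 0.30. Cd14, the co-receptor of Tlr4, ranged from 5.11 to 7.73 within knockout whole leukemia alone. Clec7a, the beta-glucan receptor Dectin-1, measured 7.59 ± 0.07 in wild-type and 6.65 ± 0.39 in knockout whole leukemia, with separate ranges (difference -0.94, SE 0.35). Clec4n, the Dectin-2 lectin, measured 5.48, 5.40 and 4.87 in wild-type whole leukemia and 4.68 to 4.88 on the other 9 arrays, close to the filter at 4.72.

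Fc receptors and regulatory receptors had the median genotype difference nearest to 0 of the 8 roles in whole leukemia, at 0.0069, with 2 of 5 lower. Lilrb4a, an inhibitory immunoglobulin-like receptor (probe set 17233226), measured 9.85, 9.16 and 9.55 in wild-type and 8.94, 11.50 and 9.58 in knockout whole leukemia, and 6.51, 7.80 and 9.32 in wild-type and 7.23, 6.19 and 6.90 in knockout L-GMP. Its highest value was that of knockout whole leukemia array 2, the array that stood apart. The genotype differences were 0.48 and -1.10 (SE 0.73 for each). Klra2, a lectin-like inhibitory receptor of the Ly49 family, differed by 0.06 and -0.46 (SE 0.41 for each). Fcgr1 had group means of 5.33 to 5.39. Fcgr4, an activating Fc receptor, differed by -0.24 and -0.70 (SE 0.47 for each), and Sirpa, the receptor for CD47, by -0.11 and 0.19 (SE 0.30 for each).

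In the MS4A family of membrane proteins, Ms4a6c and Ms4a8a had lower knockout values in both populations, and Ms4a7 lay near background at 4.72 to 5.18. Ms4a8a (probe set 17362874) measured 7.64, 6.63 and 6.93 against 5.13, 5.95 and 6.13 in whole leukemia and 5.08, 5.58 and 6.03 against 4.69, 5.02 and 4.91 in L-GMP, wild type first. The ranges were apart in both, although the knockout L-GMP arrays were close to background. Its differences were -1.33 (SE 0.33, limma adjusted p = 0.592) and -0.69 (SE 0.33). Ms4a6c measured 9.0 ± 0.63 against 7.64 ± 0.73 in whole leukemia, with ranges that did not overlap, and 8.94 ± 0.60 against 8.08 ± 0.22 in L-GMP (SD, n = 3 for each).

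Among the remaining genes, Abcc3, an export pump of organic anions (probe set 17267846), had the lowest p of all members in whole leukemia. It measured 5.99, 5.71 and 5.66 in the wild type and 5.26, 5.32 and 5.30 in the knockout there, and 5.42, 5.29 and 5.48 against 5.23, 5.18 and 5.21 in L-GMP. The ranges were apart in both populations, yet the whole leukemia difference of -0.49 (SE 0.10, limma adjusted p = 0.491, place 15 of all genes) was small in size. Slc15a3, an endolysosomal transporter of histidine and peptides (probe set 17357597), measured 7.68, 7.46 and 6.55 in wild-type and 6.33, 7.59 and 7.75 in knockout whole leukemia. It measured 5.94, 6.23 and 6.32 in wild-type and 5.45, 4.97 and 5.52 in knockout L-GMP. Its genotypes overlapped in whole leukemia (difference -0.0058) and were apart in L-GMP (-0.85, SE 0.38).

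**Figure D2:**
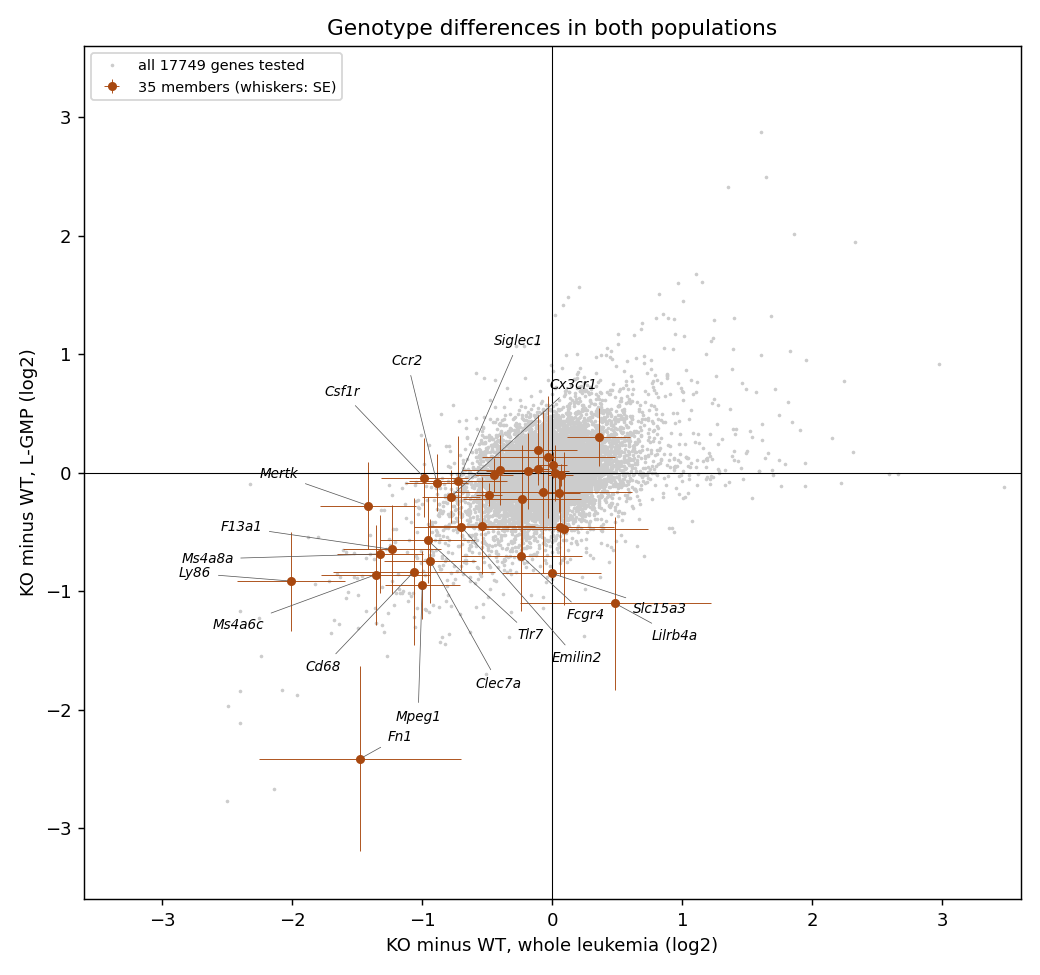
Genotype difference (KO minus WT, log2) in whole leukemia on the x axis and in L-GMP on the y axis, for 35 members (orange, whiskers SE) over all 17749 genes tested (grey). Of the members, 22 lie below 0 on both axes, with Fn1 lowest in L-GMP and Ly86 lowest in whole leukemia.

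Both genotype comparisons use different arrays, but wild-type arrays of the same number deviated together across populations (r = 0.36, 0.62 and 0.30), so the comparisons are not independent of each other and the counts over both are a description. In both, 22 of the 35 members (62.9%) had lower knockout values, against 27% of all genes, and 2 members, Tlr4 and Fcgr1, had higher ones. The arrays did not overlap, with the knockout lower, in both populations for 5 members (14.3%), namely Mpeg1, F13a1, Ms4a8a, Tlr7 and Abcc3, against 0.625% of all genes. In L-GMP the lowest wild-type and highest knockout arrays were close for Tlr7 (6.242 and 6.237), Ms4a8a (5.075 and 5.025) and Abcc3 (5.29 and 5.23). The interaction, which tests whether the genotype difference itself differed between populations, called 0 members and 0% of all genes. At an unadjusted p under 0.05 it held 1 member, Ccr2 (difference of differences 0.80, SE 0.34), with 1.2% of all genes higher, 0.856% lower and 2.06% in all. Of the 35 members 24 had an interaction above 0, that is a lower knockout value in whole leukemia than in L-GMP relative to the wild type, with a median of 0.19 beside 0.02 for all genes. Mertk (1.14), Ly86 (1.10), Csf1r (0.94) and Ccr2 (0.80) lay highest and Lilrb4a (-1.59) lowest, each at an adjusted p of 1 by limma.

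**Figure D3:**
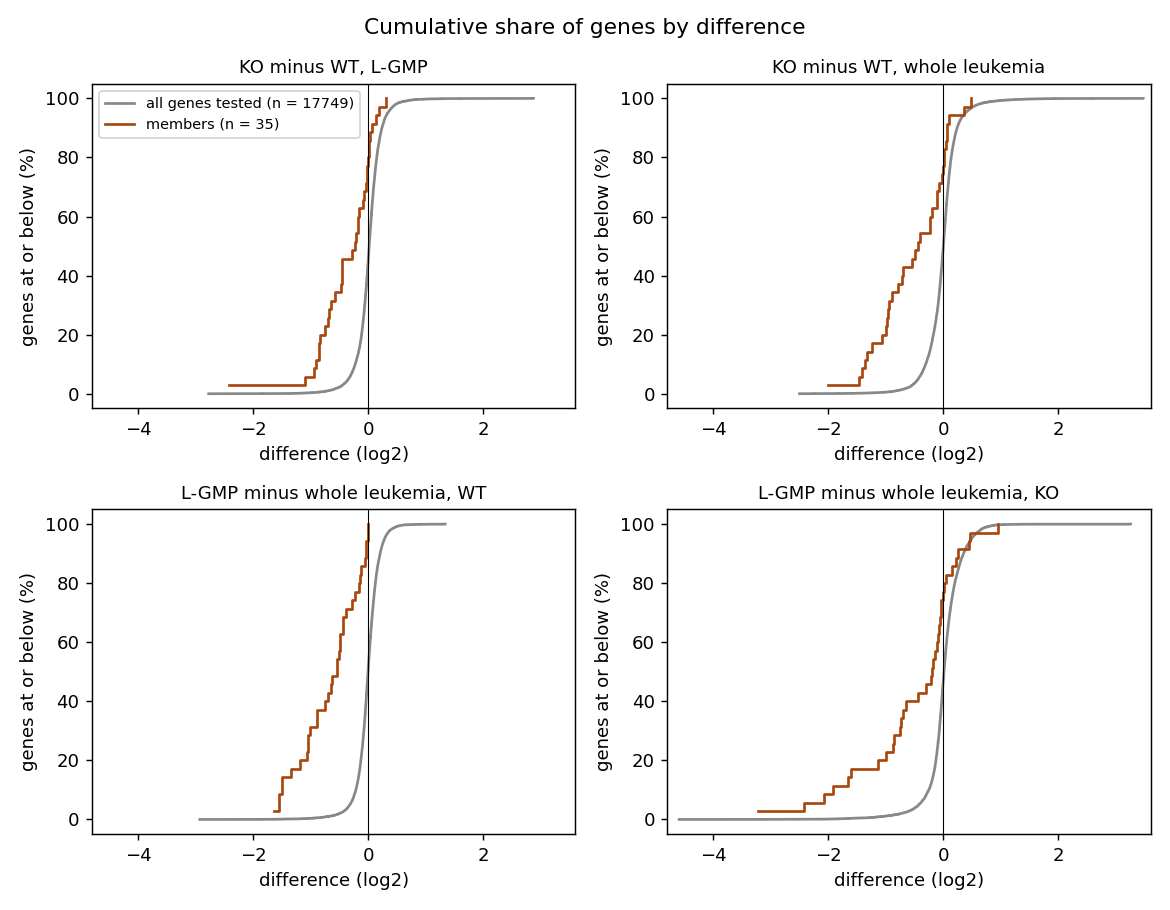
Cumulative share of genes (percent, y axis) at or below each log2 difference (x axis) in 4 comparisons, for the 35 members (orange) and all 17749 genes tested (grey). In wild-type L-GMP against wild-type whole leukemia all members lie at or below 0, with a median of -0.54, while the curve of all genes is centred at -0.0036.

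L-GMP was then set against whole leukemia within each genotype, which asks how the sorted progenitor-like fraction differs from the bulk. The L-GMP gate took lin- and c-kit+ cells, whereas whole leukemia was all GFP+ cells. The sort itself could thus set part of these differences, and its part was not tested. In the wild type all 35 members had lower values in L-GMP, with a median of -0.54 log2, although the differences of Itgax (5.24 in both populations) and Fcgr1 (-0.0057) were near 0. Over all genes 51.2% were lower. Without any one of the 12 arrays the number of lower members was between 28 and 35, the lowest where wild-type whole leukemia array 2 was left out. In the knockout 27 of 35 were lower (median -0.20), against 47.6% of all genes. Limma called 0 members and 0% of all genes in either comparison. At an unadjusted p under 0.05, 15 members were lower in the wild type (1.57% of all genes) and 9 in the knockout (3.09%), where 1, Ly86, was higher (4.3%). The arrays did not overlap, with L-GMP lower, for 14 members in the wild type (5.4% of all genes) and 12 in the knockout (4.66%), and with L-GMP higher for 0 (4.89%) and for 1, Ly86 (5.49%). A difference of -1 or lower was measured for 11 members (0.394%) in the first comparison and 8 in the second (1.17%). In both genotypes 27 members (77.1%) were lower in L-GMP, against 29% of all genes.

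Ms4a8a, Vcan and Klra2 led the wild-type comparison by p beside Abcc3. Ms4a8a had the lowest p of all 17749 genes in the wild type (difference -1.50, SE 0.33, interval -2.24 to -0.77, limma adjusted p = 1.0) and a difference of -0.86 in the knockout. Vcan, with place 4 in the wild type, measured 7.11, 6.61 and 5.84 in wild-type whole leukemia against 5.04, 5.03 and 5.47 in L-GMP, and 6.57, 5.85 and 6.57 against 5.59, 5.04 and 4.95 for whole leukemia and L-GMP of the knockout. Its L-GMP arrays were below the whole leukemia arrays in both genotypes, with differences of -1.34 and -1.13 (SE 0.32 for each). Klra2 measured 6.81, 7.76 and 7.35 in wild-type whole leukemia, 4.97, 5.64 and 6.66 in wild-type L-GMP, 7.14, 7.80 and 7.17 in knockout whole leukemia and 5.69, 4.80 and 5.39 in knockout L-GMP. It too was separate in both genotypes, at -1.55 and -2.07 (SE 0.41 for each).

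In the knockout, Lilrb4a had the largest difference at -3.23 (SE 0.73, interval -4.86 to -1.61, 0.106-fold, limma adjusted p = 0.672), beside -1.64 in the wild type. Slc15a3 differed by -1.91 (SE 0.38) in the knockout, beside -1.07 in the wild type, and of the alternatives run limma called the former only where knockout whole leukemia array 1 was left out (-2.36, adjusted p = 0.0431), a fit in which 40 genes were called. Fn1 (wild type -1.49, knockout -2.43), Itgam (-1.05 and -1.61), Cybb (-1.56 and -1.65) and Mpeg1 (-0.75 and -0.70) were lower in L-GMP of both genotypes. Some members had lower L-GMP values in the wild type and higher ones in the knockout, namely Ly86 (-0.15 and 0.95), F13a1 (-0.13 and 0.46), Ms4a6c (-0.05 and 0.44), Csf1r (-0.70 and 0.25), Siglec1 (-0.44 and 0.21), Ccr2 (-0.65 and 0.15), Fcgr1 (-0.0057 and 0.05) and Cd68 (-0.23 and 0.0030). These comparisons share the whole leukemia arrays with the genotype comparison above, so the low knockout whole leukemia values of Ly86, Csf1r and Ccr2 enter both.

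Arrays with the same number were set side by side as a description, since wild-type arrays of a number deviated together. The numbers were not shown to pair samples in either genotype. In numbers 1, 2 and 3 of the wild type, 31, 32 and 24 of the 35 members were lower in L-GMP, with medians of -0.87, -0.84 and -0.18. In the knockout the counts were 20, 26 and 28, with medians of -0.05, -0.45 and -0.40. All 3 wild-type differences were below 0 for 20 members, against 15.3% of all genes. Number 3 of the wild type thus differed less between its populations than numbers 1 and 2. Its L-GMP array also had the highest summed linear intensity of 10 neutrophil markers, 9476 against 1370 and 905 on arrays 1 and 2. Its whole leukemia array was highest as well, at 18972 against 5349 and 3751. The part of these markers in the smaller difference was not tested.

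**Figure D4:**
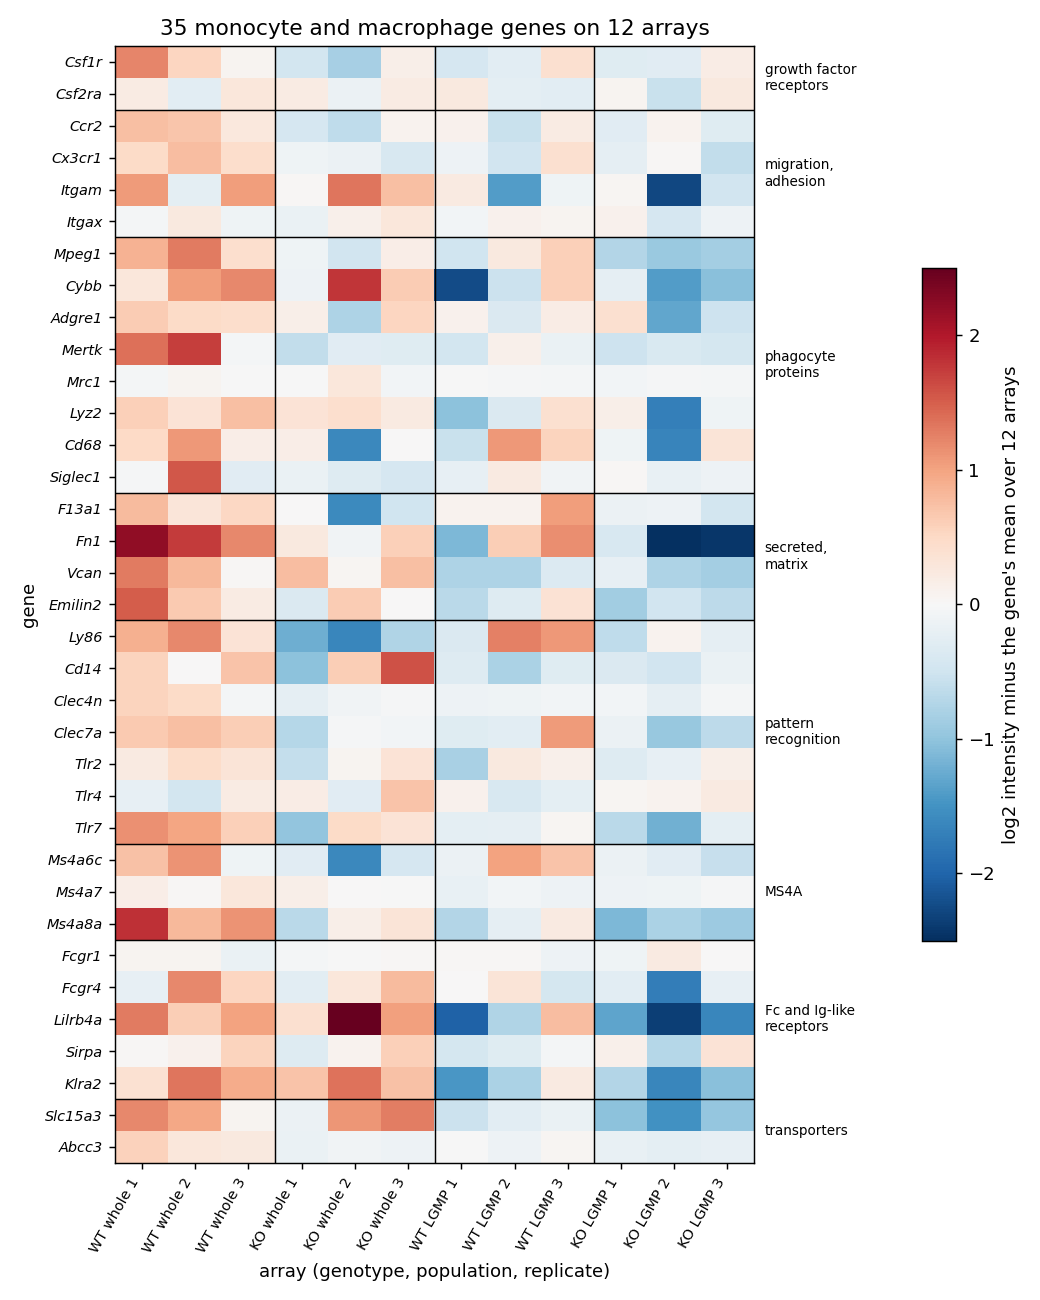
Deviation of each member from its mean over the 12 arrays (log2, colour), with members in rows grouped by role and arrays in columns grouped by population and genotype. Colours end at -2.5 and 2.5, which 2 of the 420 values exceed, Lilrb4a on knockout whole leukemia array 2 (2.95) and Fn1 on knockout L-GMP array 2 (-3.75).

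The members varied together to a degree. Over the 12 arrays the median pairwise correlation of the 35 members was 0.43, with 83.7% of the 595 pairs positive, against a median of 0.0033 over all pairs of genes. With the group means taken out it was 0.21, with 67.4% positive. These points share arrays, groups and amplification, so the values are a description. The closest pairs were Mertk with Clec4n (0.94), Lilrb4a with Klra2 (0.92), Cybb with Klra2 (0.92), Ms4a8a with Emilin2 (0.92), Cybb with Lilrb4a (0.91) and Ly86 with Ms4a6c (0.91), and the farthest was Lyz2 with Fcgr1 (-0.70). Mertk and Clec4n were both highest on wild-type whole leukemia arrays 1 and 2, and Clec4n lay close to the filter on the others. Tlr4 (median -0.21) and Fcgr1 (-0.13) ran against the other members. By the share of variance over the 12 arrays, genotype took most for Ly86 (61.5%), Ms4a6c (55.3%) and F13a1 (51.8%), and population took most for Klra2 (77.3%), Vcan (74.3%), Slc15a3 (67.1%) and Lilrb4a (63.0%). The median member had 18.4% for genotype, 20.5% for population and 41.2% within groups, against 6.2%, 6.5% and 73.2% for all genes.

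Markers of other cells moved with some of these comparisons. Of 10 neutrophil markers, such as S100a8, S100a9 and Ngp, 10 had higher values in knockout whole leukemia, with a median difference of 1.81, and 10 of 10 were lower in L-GMP of each genotype, with a median of -1.31 for the wild type and of -2.95 for the knockout. Between genotypes in L-GMP, where 28 of 35 members were lower, 6 neutrophil markers were lower and 4 higher, with a median of -0.05. All 10 passed the filter and none was called. Their summed linear intensity ran from 3751 to 18972 in wild-type and from 10334 to 34210 in knockout whole leukemia, and from 905 to 9476 in wild-type and 3517 to 7339 in knockout L-GMP. In whole leukemia the members' sum ran the other way by genotype, from 15266 to 18631 in the wild type and from 9935 to 13620 in the knockout. In L-GMP it ran from 6603 to 14294 in the wild type and from 4809 to 8597 in the knockout. Over the 12 arrays Lilrb4a (r = 0.79), Cybb (0.78), Klra2 (0.73) and Itgam (0.67) followed the neutrophil marker mean, and Ms4a6c (-0.61) and Ly86 (-0.55) ran against it. Group means were not taken out here. Lilrb4a, Cybb, Klra2, Itgam and the neutrophil markers were all lower in L-GMP of both genotypes, which enters these correlations. The part of the neutrophil markers in the result was not tested.

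**Figure D5:**
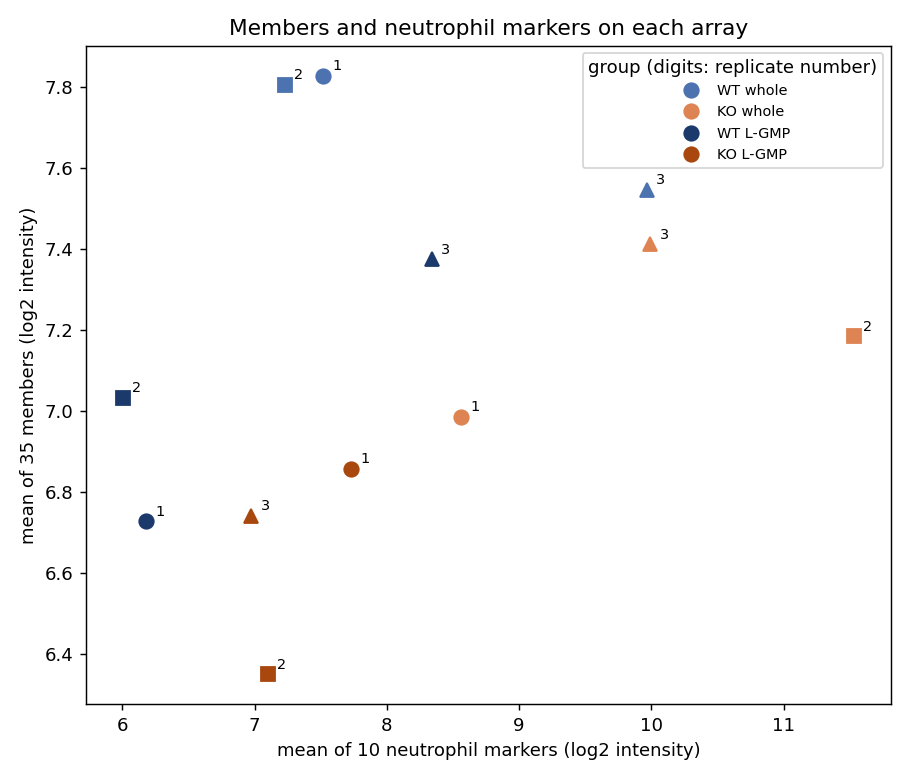
Mean log2 intensity of the 35 members (y axis) against that of 10 neutrophil markers (x axis), 1 point per array, coloured by group and numbered by replicate. The 3 knockout whole leukemia arrays have member means of 6.98 to 7.41, below the wild-type ones at 7.55 to 7.83, over neutrophil means of 8.56 to 11.53 and 7.23 to 9.97.

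Other lists moved with single arrays or groups. Of 7 granulocyte-macrophage progenitor markers, 7 were higher in knockout than in wild-type L-GMP, with array means of 9.95 to 11.31 against 9.26 to 9.80. The erythroid marker mean was 8.73 on knockout whole leukemia array 2 and 4.91 to 5.97 elsewhere, and the mean of eosinophil, basophil and mast cell markers was 8.14 on knockout L-GMP array 2 and 5.45 to 6.63 elsewhere. The part of these markers in the result was not tested. Without knockout whole leukemia array 2, 30 of 35 members were lower in the knockout in whole leukemia (median -0.47). Without knockout L-GMP array 2, 23 of 35 were lower in L-GMP (median -0.17). With each of the 12 arrays left out in turn, lower members numbered 23 to 30 in whole leukemia and 23 to 31 in L-GMP. The 23 in whole leukemia came without knockout whole leukemia array 1.

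Other genes of the monocyte pathways were taken from 6 lists of 100 genes, of which 92 were tested and 0 were called in any comparison by limma. Of 13 monocyte transcription factors, 8 were lower in the knockout in whole leukemia and 6 in L-GMP. Irf8, which directs progenitors to monocytes, differed by -1.63 (SE 0.74) and -0.88, and Runx1, a regulator of blood formation, by 0.37 (SE 0.14) in L-GMP, its arrays lying above the wild-type ones. Of 15 Toll-like receptor pathway genes, 12 were lower in whole leukemia and 9 in L-GMP, among them Tlr9, the receptor for bacterial DNA (-1.10 and -1.01, SE 0.36 for each). Of 11 genes of the colony-stimulating factor and cytokine axis, 5 were lower in each population. The granulocyte receptor Csf3r was higher in knockout whole leukemia (0.99, SE 0.39) and the interleukin 6 receptor Il6ra lower (-1.09, SE 0.37).

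Of 10 genes of Fc receptor and immunoreceptor signalling, 10 were lower in wild-type L-GMP than in whole leukemia and 8 in knockout L-GMP. Pirb, an inhibitory receptor, differed by -1.61 and -2.32 (SE 0.69 for each). All 4 tested genes of the NADPH oxidase were lower in L-GMP of both genotypes, and 1 of them was lower in knockout whole leukemia. Of 39 other monocyte and macrophage genes, 25 were lower in the knockout in whole leukemia (median -0.18) and 26 in L-GMP (median -0.08). Between populations, 32 and 29 were lower in L-GMP of the wild type and the knockout. Clec4a1, a lectin-like receptor of monocytes, differed by genotype by -1.82 (SE 0.47, adjusted p = 0.609 by limma) in whole leukemia. Ctss, the lysosomal protease cathepsin S, differed by -1.31 there and -1.29 in L-GMP (SE 0.54 for each). Genes with higher knockout values numbered 14 in whole leukemia and 13 in L-GMP. The largest such difference was that of Cd36 in whole leukemia (1.69, SE 1.00). In L-GMP it was that of Clec12a (1.60, SE 1.05), whose knockout arrays all lay above the wild-type ones.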

How the data were processed

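Gene expression of 12 samples was measured on 1-colour arrays, 3 in each of 4 groups. Per the labels' protocols, NuGEN whole-transcript kits were used to amplify the RNA and label it with biotin. The deposited values are linear intensity per probe set, and how the authors corrected background and normalized is not given in the sources used here. Their log2 was used as it stood, without a pseudocount. Names came from the platform annotation, in which 23521 of 33794 probe sets had 1 symbol, 1814 several and 8459 were not listed. Each gene took its single-symbol probe set of highest mean, and the 25% of probe sets with the lowest means (below 4.72) were left out.

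Comparisons used limma 3.58.1 under R 4.3.3 (lmFit and eBayes, statmod 1.5.0), with 1 mean per group over all 12 arrays, 8 residual and 2.36 prior degrees of freedom, and Benjamini-Hochberg adjustment over 17749 genes. The scripts were tested on simulated arrays. Near background, log2 differences understate changes. Members, roles, lists, tests and the rule for named genes were chosen with earlier results of these data known. That rule gave array values to 8 defining genes, to the 4 members of lowest p in each comparison and to members called, and named members that went against the majority and up to 3 genes of lowest p per companion list. Tlr7 was given in full beside its count, and Cd36 and Clec12a were added as companion genes of the other direction. Alternatives changed the normalization, by quantiles or by centring each array on its median. Others changed the offset, filter, probe set rule, variance model, array weights, groups and replicate block, or left out arrays.

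Pairing by replicate number was checked by correlating the arrays' deviations from their group means. Between whole leukemia and L-GMP of the wild type, numbers 1, 2 and 3 gave 0.36, 0.62 and 0.30, and unlike numbers -0.37 to 0.03. Deviations of 3 arrays from their mean sum to 0, which lowers the correlations of unlike numbers where like numbers correlate. With 3 arrays a group these values thus do not establish pairing, and the labels give none. What arrays of a number share was not tested. The knockout gave 0.13, 0.09 and 0.43, and its unlike numbers -0.38 to 0.19.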

Additional observations from a re-analysis of the deposited data

How the results depend on the processing

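All 5 comparisons had 0 members called under every alternative that kept all arrays. Members below 0 numbered 23 to 29 in L-GMP and 25 to 30 in whole leukemia between genotypes, 31 to 35 and 23 to 30 between populations of the wild type and the knockout, and 8 to 16 in the interaction, over those alternatives and the removal of both number-2 arrays of a genotype. The median member difference in L-GMP was -0.45 with the lowest 50% of probe sets left out, where 31 members were tested. Counts under that setting are thus out of 31, and all 31 were lower in L-GMP than in whole leukemia of the wild type. The count of genes called in L-GMP between genotypes, 1 as reported, was 0 with no filter, with the compared groups alone, with the replicate block by number and with both wild-type arrays of number 2 left out, 2 with the mean of a gene's probe sets and with a trended and robust variance, and 4 with array weights. Without both number-2 knockout arrays 1 gene was called in whole leukemia between genotypes. Between populations of the knockout, 0 as reported, 2 genes were called with an offset of 16, 1 with the lowest 50% left out and 1 with a trended and robust variance. The cause was not tested.

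With the replicate block by genotype and number as a random term (consensus correlation 0.15), 2 genes were called between populations of the knockout. As a fixed term, a pairing chosen after seeing the data, the block gave 15 lower members at an unadjusted p under 0.05 in the wild type (2.34% of all genes) and 10 lower and 1 higher in the knockout (3.7% of all genes lower, and 1003 of 17749 higher), with 0 genes called. No block changed the call of a member.

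Leaving out each array in turn gave 0 to 2 genes called in L-GMP and 0 to 1 in whole leukemia between genotypes, and 0 to 40 between populations of the knockout, where members called ran from 0 to 1, as they did in whole leukemia between genotypes. These members were Slc15a3, without knockout whole leukemia array 1, and Mertk, without wild-type whole leukemia array 3. The median member difference ran from -0.38 (without wild-type L-GMP array 1) to -0.14 (without wild-type L-GMP array 3) in L-GMP, from -0.60 to -0.34 in whole leukemia, from -0.79 (without wild-type L-GMP array 3) to -0.53 between populations of the wild type and from -0.35 to -0.12 in the knockout. Where signal was near background, as for Mrc1, Ms4a7 and Clec4n, differences are compressed.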

Other observations

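Irf5 was read only by a probe set that also holds Tnpo3 (17456692), so its values cannot be assigned to either gene. That probe set measured 7.99 ± 0.37 log2 (SD, n = 3) in wild-type and 7.03 ± 0.35 in knockout whole leukemia, and 7.38 ± 0.71 in wild-type and 6.88 ± 0.25 in knockout L-GMP. The whole leukemia arrays did not overlap, at 7.73 to 8.42 against 6.64 to 7.32, and the L-GMP arrays did. Lilrb4a has a further probe set shared with Lilr4b (17233210), which reached 9.93 on knockout whole leukemia array 2 and measured 4.66 to 7.07 on the other 11 arrays.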
